A study of Homo sapiens with 2 samples.

Results

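The genes described here are the organic ion and bile acid transporters of the SLCO, SLC10, SLC22, SLC47 and SLC51 families. They were picked by a rule on gene symbols, set with earlier results of these data known. The rule found 46 of the 24991 gene names listed in both libraries: 12 SLCO genes, 7 SLC10 genes, 23 SLC22 genes, 2 SLC47 genes and 2 SLC51 genes. RNA-seq was carried out on PLC, an established line of human liver cancer cells. The EV cells carried the empty pCDH lentiviral vector, and the PRSS35 cells stably expressed PRSS35, a member of the serine protease family, from the same vector. Both lines had been selected with puromycin and were sequenced as 1 library each, and no further treatment is stated for the sequenced cells. With 1 library per condition there was no test, a difference compares these 2 libraries only, and the effect of PRSS35 cannot be told apart from that of the culture.

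Hepatocytes take up bile acids, bilirubin, hormones and drugs from the blood through carriers of the basolateral membrane. NTCP, encoded by SLC10A1, moves bile acids together with sodium. The OATPs, encoded by SLCO genes, and the OATs and OCTs, encoded by SLC22 genes, mostly carry organic anions and cations without a direct need for sodium. Several of the SLC22 family instead carry carnitine or have no settled substrate. Although these families are known for uptake, 4 of the 46 genes encode exporters: the MATE proteins SLC47A1 and SLC47A2 extrude cations against protons, and SLC51A with SLC51B forms OST, which releases bile acids across the basolateral membrane.

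The labels were checked with PRSS35 itself, which was at 0.643 FPKM in EV (interval 0.445 to 0.841) and at 1836 FPKM in PRSS35 (1759 to 1912). FPKM is fragments per kilobase of transcript, scaled to the mapped fragments of the library, so levels of different genes are compared per length. The interval printed with a value is the one Cufflinks gave, which covers counting and assignment of fragments within 1 library and not the spread between cultures. Over 621 loci with few fragments and an annotated identifier in both libraries, the FPKM worth of 1 fragment in EV was 1.001 times that in PRSS35, as a median. Of the 10 expressed transporter genes described below, 2 had such an identifier in both libraries. That ratio does not cover the others, whose rows were made by the assembly in at least 1 library. The summed FPKM was 856880 in EV and 831520 in PRSS35 over loci with a gene name, but 2469030 and 1508530 over all loci. Of the 15 hepatocyte markers, 13 were expressed, summing to 3821 FPKM in EV and 5544 in PRSS35, whereas HP was listed at 0 in both and ALB was at 4.05 and 5.21 FPKM. Most of the gap between those sums came from SERPINA1, at 2528 and 4239 FPKM, while APOA1 was at 576.2 and 493.6 and the median change of the list was 0.03. Markers of the other tissues that use these carriers were low, with sums of 0.0751 and 0.267 FPKM over 7 proximal tubule genes and 20.3 and 29.5 over 7 enterocyte genes, nearly all of it from VIL1. The 7 biliary markers summed to 74.3 and 82.3 FPKM, the 7 fibroblast markers to 1.75 and 2.03, and the 6 endothelial markers to 0.0516 and 0.0307. The 7 leukocyte markers summed to 391.3 and 381.9 FPKM, from LYZ at 94.0 and 103.7 and a row that joins CD68 to MPDU1, with PTPRC listed at 0. A value of 0 needs care in these tables, because 92 gene names had a 0 in 1 library although the second library gave them at least 5 FPKM. Of those, 12 had kept their annotated identifier in the library with the 0, whereas the rest stood at 0 under an identifier that the assembly had made. Such genes are described here as listed at 0, not as absent.

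Few of the 46 genes were expressed, taken as a mean of at least 1 FPKM over both libraries. The expressed genes numbered 10, or 21.7%, against 40.5% of all gene names (10133 of 24991). They were SLC10A3, SLC51B, SLC22A18, SLCO4A1, SLC22A23, SLC22A5, SLC10A4, SLCO2B1, SLC22A17 and SLC22A31. The other 36 were below that level, and 19 of these were listed at 0 in both libraries. Of those 19 genes, 15 had kept their annotated identifier in both. In single libraries, 25 of the 46 were above 0 in EV and 24 in PRSS35. In bulk RNA, a gene used by few of the cells and one with little RNA in every cell cannot be told apart.

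Other transporter families were expressed more often in the same libraries. Of 44 ABC transporter genes 52.3% were expressed, of 59 amino acid transporter genes 35.6%, and of 284 SLC genes outside the set 48.9%. The 284 SLC genes include the 59 amino acid transporter genes, so these groups overlap. Listed at 0 in both libraries were 41.3% of the 46 genes, 20.5% of the ABC genes, 25.4% of the amino acid transporter genes, 21.8% of the 284 SLC genes and 38% of all names. Within the set, expressed genes made up 2 of 12 in the SLCO family, 2 of 7 in SLC10, 5 of 23 in SLC22, 0 of 2 in SLC47 and 1 of 2 in SLC51. These shares describe which genes PLC cells expressed and were not tested.

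**Figure D1:**
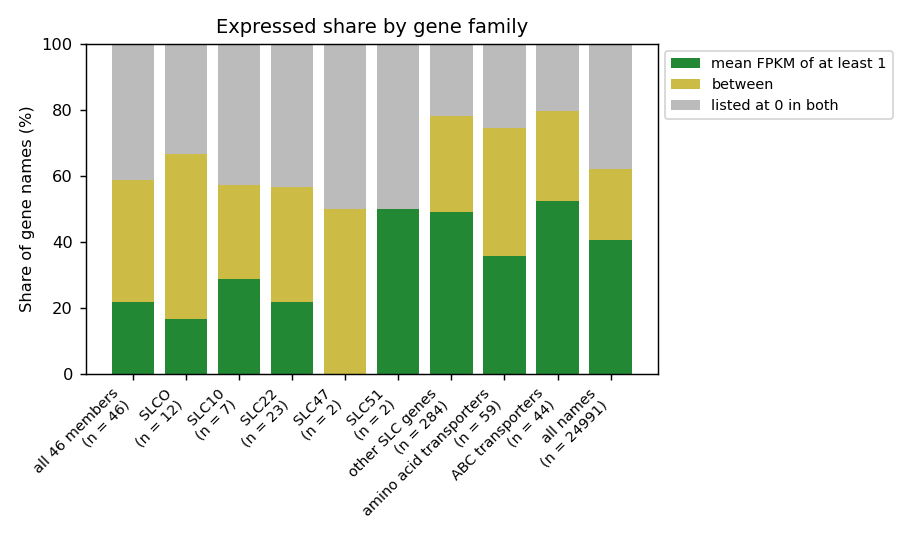
Share of gene names (%) in each family that had a mean of at least 1 FPKM over both libraries, that lay between, or that were listed at 0 in both, with the number of names under each bar. The 46 transporter genes had 21.7% expressed, against 52.3% of the ABC transporters and 40.5% of all names. The bar of other SLC genes includes the amino acid transporters.

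**Figure D2:**
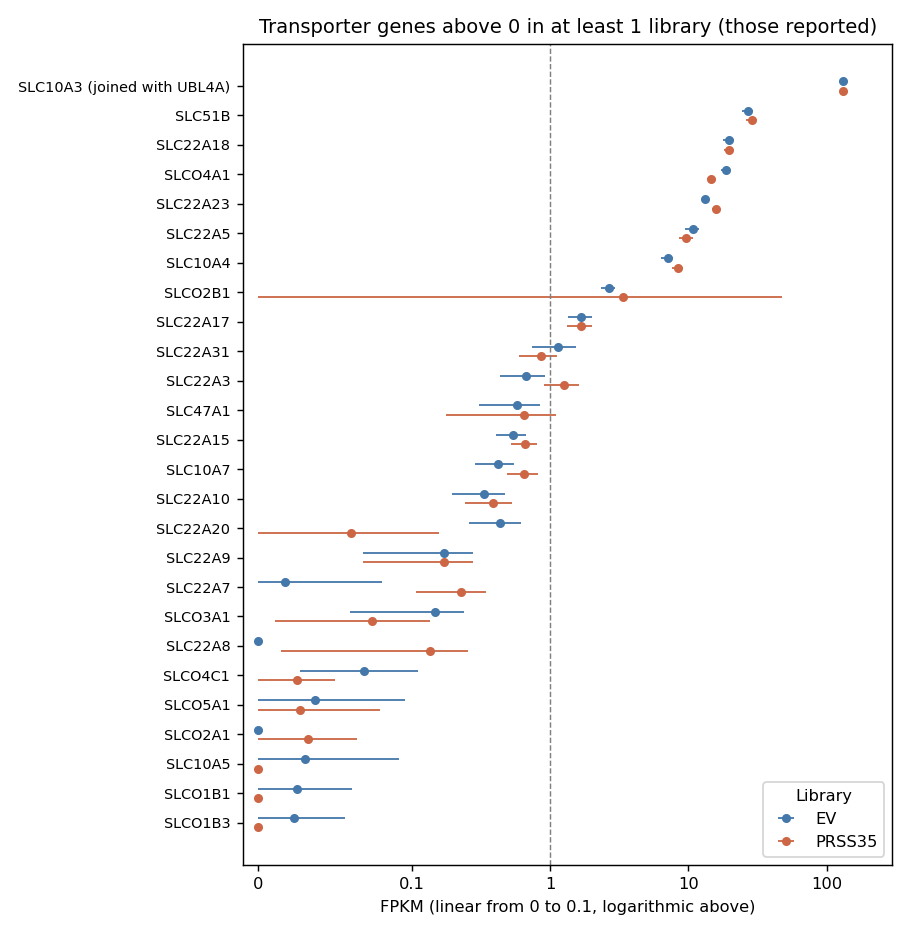
FPKM of the transporter genes above 0 in at least 1 library and reported here, with points for the EV and PRSS35 libraries and bars for the Cufflinks interval, on an axis that is linear up to 0.1 and logarithmic above it. The points of the libraries lie close together for the genes at the top, and the bar of SLCO2B1 in PRSS35 runs from 0 to 48.0 FPKM.

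The carriers that define uptake by the hepatocyte were close to 0. SLC10A1 (NTCP, chromosome 14 of GRCh37, 70242133 to 70263958) was listed at 0 in both libraries. SLCO1B1 (OATP1B1), a carrier of statins and bilirubin conjugates, was at 0.0253 FPKM in EV, worth about 1.99 fragments, and listed at 0 in PRSS35. Its neighbour SLCO1B3 (OATP1B3) was at 0.0232 FPKM in EV, again about 1.99 fragments, and listed at 0 in PRSS35. Fragments were worked out from the width of the Cufflinks interval. That width also covers assignment, so the number need not be the fragments counted. For SLCO2B1 in PRSS35 it gave 0.0226 at 3.35 FPKM. At a pair of fragments no difference between the libraries was detectable. SLC22A9 (OAT7), which exchanges sulfated steroids, was at 0.172 FPKM in both, from 11.0 fragments in each, and the intervals overlapped almost entirely.

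SLC22A7 (OAT2), a liver carrier of anionic drugs and cyclic GMP, differed between the libraries at a very low level. It was at 0.0174 FPKM (0 to 0.0803) in EV and at 0.226 FPKM (0.107 to 0.344) in PRSS35, and the intervals did not overlap. The EV value was worth 0.308 fragments and the PRSS35 value 14.5. In EV the SLC22A7 row carried an identifier made by the assembly, and in PRSS35 the annotated one. Whether both rows describe the same transcripts was not tested. On the log2 scale with 1 FPKM added to each value, the scale of every change given here, the difference was 0.27, and with 0.1 FPKM added it was 1.47. SLC22A7 overlaps CRIP3 on the opposite strand, which was at 0.175 and 0.273 FPKM, and no source used here states whether the reads kept their strand, so reads of the gene and its antisense partner cannot be told apart.

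SLCO2B1 (OATP2B1), which carries steroid sulfates and is found in many tissues beside the liver, was the hepatocyte uptake gene with the highest value in both libraries. It lies on chromosome 11 of hg19 (74862032 to 74917445) and was at 2.65 FPKM (2.33 to 2.96) in EV and 3.35 FPKM in PRSS35. The PRSS35 interval ran from 0 to 48.0 FPKM, so the change of 0.26 had a range of -1.99 to 3.88. A range that wide gives no direction. Summed over the 7 hepatocyte uptake genes, the level was 3.03 FPKM in EV and 3.89 in PRSS35, and SLCO2B1 made up most of both sums.

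SLCO1B1 and SLCO1B3 show best what the start sites of the uptake genes look like, so both are printed. Each line holds 250 bases before and 50 bases from the start site on, read 5′ to 3′ on the plus strand of GRCh37 (the assembly called hg19 by the authors), at chr12:21283878-21284177 for SLCO1B1 and chr12:20963389-20963688 for SLCO1B3. Capitals mark matches to GTTAAT on either strand, a motif known from promoters of liver genes.
SLCO1B1: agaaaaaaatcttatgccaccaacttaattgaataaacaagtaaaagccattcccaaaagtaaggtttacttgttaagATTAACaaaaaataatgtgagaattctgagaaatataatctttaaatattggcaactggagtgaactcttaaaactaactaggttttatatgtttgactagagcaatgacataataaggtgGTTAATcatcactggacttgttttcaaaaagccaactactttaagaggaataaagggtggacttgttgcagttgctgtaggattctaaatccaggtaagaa
SLCO1B3: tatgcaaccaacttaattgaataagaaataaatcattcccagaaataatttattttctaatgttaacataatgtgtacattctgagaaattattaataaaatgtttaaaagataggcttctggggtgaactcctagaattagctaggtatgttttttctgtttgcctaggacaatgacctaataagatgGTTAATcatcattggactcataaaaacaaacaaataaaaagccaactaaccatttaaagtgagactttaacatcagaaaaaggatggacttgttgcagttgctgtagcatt

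The SLCO1B1 window held 2 matches, at positions -172 and -51 from the start site, and the SLCO1B3 window held 1 match, at position -61. Both windows lacked any CpG dinucleotide, and the longest run of bases they had in common was 23 bases long. Over the windows of all 19265 named genes with an annotated start, 4.96% held GTTAAT. Among the transporter genes, the letters were found in 0 of 10 expressed genes and in 7 of 35 others. A match is a description of the letters in the window and not evidence of binding.

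The level of transcript could also be split wrongly between genes that share sequence in the annotation. SLCO1B3 shared 52.6% of its 50-base stretches with the SLCO1B3-SLCO1B7 readthrough gene, and SLCO1B7 shared 84.4% with it. With other genes of the set, SLCO1B3 shared 1.23% and SLCO1B7 2.18%. SLCO1B7 was listed at 0 in both libraries. Values of these genes are therefore uncertain even where they are above 0.

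The subunits of the OST exporter differed in level. SLC51B, the small accessory subunit of OST, lies on chromosome 15 (65337708 to 65345734, 4 annotated exons) and was at 27.1 FPKM (24.5 to 29.6) in EV and 29.0 FPKM (26.3 to 31.7) in PRSS35. That was the highest level of any of the 46 genes with a locus of its own, ranking 2986 of 24991 names in EV and 2951 in PRSS35. SLC51A, the larger subunit, which OST activity is known to need beside SLC51B, was listed at 0 in both. In EV the SLC51A row carried an identifier made by the assembly, and in PRSS35 the annotated one. SLC51A overlaps PCYT1A on the opposite strand, which was at 11.7 and 16 FPKM, whereas RASL12, which overlaps SLC51B, was listed at 0 in both. Whether fragments of SLC51A were assigned elsewhere was not tested.

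Both OST genes are known targets of the bile acid receptor FXR, whose sites are built from the letters AGGTCA, so their start sites are shown with matches to AGGTCA in capitals. SLC51B is taken from chr15:65337475-65337774 and SLC51A from chr3:195943155-195943454, both on the plus strand of GRCh37 and both with 250 bases before and 50 from the start site on.
SLC51B: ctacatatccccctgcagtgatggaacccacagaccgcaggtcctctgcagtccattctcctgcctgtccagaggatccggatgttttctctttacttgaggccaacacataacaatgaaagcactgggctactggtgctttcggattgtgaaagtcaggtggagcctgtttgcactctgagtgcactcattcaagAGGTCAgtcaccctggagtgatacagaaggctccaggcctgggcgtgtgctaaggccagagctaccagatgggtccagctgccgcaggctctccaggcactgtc
SLC51A: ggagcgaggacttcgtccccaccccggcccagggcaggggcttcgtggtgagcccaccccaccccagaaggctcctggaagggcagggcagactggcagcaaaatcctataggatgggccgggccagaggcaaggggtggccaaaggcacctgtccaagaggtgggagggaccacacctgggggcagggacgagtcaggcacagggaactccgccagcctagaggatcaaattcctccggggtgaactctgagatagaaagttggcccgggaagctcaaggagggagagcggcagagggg

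The SLC51B window held 1 match, at position -54 from the start site, and the SLC51A window held 0. AGGTCA was present in 11.7% of all windows, in 2 of 10 expressed transporter genes and in 7 of 35 others. The exact inverted repeat of these letters with 1 free base between was in 0 of the 19265 windows. Exact matches of that length are rare and inexact repeats were not counted, so the 0 says nothing about sites of FXR. FXR itself, encoded by NR1H4, was listed at 0 in both libraries, and is named after its values were seen.

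The MATE exporters were below the expression level. SLC47A1 (MATE1), which releases cations into bile, was at 0.579 FPKM (0.308 to 0.850) in EV and 0.644 (0.175 to 1.11) in PRSS35, with overlapping intervals. SLC47A2 (MATE2), best known from kidney, was listed at 0 in both, under an identifier made by the assembly in each library. It overlaps ALDH3A2 on the opposite strand, which was at 14.1 and 15.3 FPKM. Whether fragments of SLC47A2 were assigned elsewhere was not tested.

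Among the remaining SLC10 genes, the values came from orphan carriers and not from bile acid carriers. SLC10A2, the ileal bile acid carrier ASBT, and SLC10A6, which carries sulfated steroids, were listed at 0 in both libraries. SLC10A4, a relative found on neuronal vesicles with no settled substrate, lies on chromosome 4 (48485360 to 48491541, 3 annotated exons). It was at 7.08 FPKM (6.38 to 7.78) in EV and 8.38 FPKM (7.62 to 9.15) in PRSS35, a change of 0.22 with a range of -0.03 to 0.46. The intervals overlapped. The row that names SLC10A3 was the highest of the set at 131.2 FPKM (126.4 to 136.1) in EV and 131.8 (126.9 to 136.8) in PRSS35. That row joined SLC10A3 to UBL4A, which lie on the same strand of chromosome X with 690 bases between them, so how much of it belonged to SLC10A3 cannot be read from the file.

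In the SLCO family outside the hepatocyte carriers, SLCO4A1 was the only one expressed of 9. SLCO4A1 (OATP4A1), a widely expressed carrier of thyroid hormones, lies on chromosome 20 (61273797 to 61303647). It was at 18.6 FPKM (17.3 to 19.9) in EV and 14.7 FPKM (13.6 to 15.7) in PRSS35. The intervals did not overlap, and the EV value was 1.27 times the PRSS35 value. The change of -0.32 (range -0.51 to -0.13) became 0.35 when each library was scaled by its sum over all loci, where it lay below the median change of all expressed genes, 0.67. The antisense gene SLCO4A1-AS1 was listed at 0 in both libraries. Of the other 8 genes, 4 were listed at 0 in both and none reached 0.15 FPKM in either library.

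In the SLC22 family outside the hepatocyte group, 0 of 2 organic cation genes, 0 of 9 organic anion genes, 1 of 4 carnitine and zwitterion genes and 4 of 5 genes with other or unsettled substrates were expressed. These roles were assigned by hand, and the difference between them was not tested. SLC22A18, an imprinted gene with no settled substrate on chromosome 11 (2920951 to 2946476, 11 annotated exons), was at 19.6 FPKM (18.0 to 21.3) in EV and 19.8 FPKM (18.1 to 21.4) in PRSS35. Its antisense partner SLC22A18AS was listed at 0 in both. SLC22A23, an orphan carrier on chromosome 6 (3269207 to 3457332 in EV), was at 13.2 FPKM (12.6 to 13.9) in EV and 15.8 FPKM (14.9 to 16.7) in PRSS35. These intervals did not overlap, and the PRSS35 value was 1.19 times the EV value, a change of 0.24 (0.09 to 0.38). The fragments worked out from the interval width went the other way, at about 1633 in EV and 1280 in PRSS35. That width also covers assignment, so it cannot show that fewer fragments were counted in PRSS35. Both rows carried an identifier made by the assembly, and the locus ended at 3456793 in PRSS35. Whether both rows describe the same transcripts was not tested. SLC22A23 shared 14.2% of its 50-base stretches with PSMG4, which overlaps it on the opposite strand and was at 47.1 and 46.7 FPKM, and the part of those shared bases in the difference was not tested.

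SLC22A17, a receptor for the iron-binding protein lipocalin-2, was at 1.68 FPKM (1.34 to 2.03) in EV and 1.66 (1.32 to 2.0) in PRSS35. SLC22A31, an orphan, was at 1.14 FPKM (0.745 to 1.54) in EV and 0.863 (0.598 to 1.13) in PRSS35. The intervals of both genes overlapped. For SLC22A31 the fragments worked out from the interval width went the other way, at 32.9 in EV and 42.4 in PRSS35. Its row carried an identifier made by the assembly in EV only, and the width also covers assignment of fragments. SLC22A31 was the expressed gene nearest to the level of 1 FPKM, and SLC22A3 (OCT3), a cation carrier of many tissues, was just under it at 0.674 FPKM (0.434 to 0.915) in EV and 1.25 (0.898 to 1.61) in PRSS35. The SLC22A3 values differed 1.86-fold, the largest ratio among the genes above 0.5 FPKM in both libraries, from 31.4 and 49.9 fragments, and their intervals overlapped.

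SLC22A5 (OCTN2), the sodium-dependent carnitine carrier, was expressed. It lies on chromosome 5 (131705134 to 131731306, 10 annotated exons) and was at 10.7 FPKM (9.53 to 11.9) in EV and 9.65 FPKM (8.53 to 10.8) in PRSS35, with overlapping intervals and a change of -0.14. SLC22A4 (OCTN1), the ergothioneine carrier next to it, was listed at 0 in both and overlaps P4HA2 on the opposite strand, at 19.9 and 21.8 FPKM. Also listed at 0 was SLC22A16, a carnitine carrier of testis. SLC22A15 was at 0.540 and 0.664 FPKM.

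The organic anion genes of kidney and other tissues reached at most 0.436 FPKM in EV and 0.387 in PRSS35, and 6 of 9 were listed at 0 in both. These 6 were SLC22A6 (OAT1), SLC22A11, SLC22A12 (the urate carrier URAT1), SLC22A13, SLC22A24 and SLC22A25. SLC22A8 (OAT3) was listed at 0 in EV and was at 0.135 FPKM in PRSS35. SLC22A20 was at 0.436 FPKM (0.258 to 0.615) in EV and at 0.0605 FPKM (0 to 0.158) in PRSS35, and the intervals did not overlap. The EV value was worth 23.8 fragments and the PRSS35 value 1.53. Its change was -0.44, and -1.74 with 0.1 FPKM added in place of 1.

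Taken over the whole set, no expressed gene passed a 2-fold change. Higher at 2-fold in PRSS35 were 0 of 10 and lower were 0 of 10, beside 1.89% and 1.84% of all 10133 expressed genes. At 1.5-fold there were again 0 of 10, beside 4.32% higher and 3.55% lower. Over 10 genes, shares of that size come to less than 1 gene, so a count of 0 is near the background. The values were higher in PRSS35 for 6 genes and lower for 4, with a median change of 0.01 and a range of -0.32 to 0.26, beside a median of 0.06 over all expressed genes; scaled by the sum over all loci, all 10 were higher and the medians were 0.70 and 0.67. Summed over genes with their own locus, the set was at 105.5 FPKM in EV and 107.6 in PRSS35.

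Intervals that did not overlap were found for 2 of the 10 expressed genes, beside 38.2% of all 9992 expressed genes above 0 in both libraries. The 2 were SLC22A23 (higher FPKM in PRSS35) and SLCO4A1 (lower, but higher when scaled by the sum over all loci). For SLC22A23 the fragments worked out from the interval width were lower in PRSS35. Split by direction, the background was 24.4% higher and 13.8% lower. Of the 12 transporter genes below the expression level and above 0 in both libraries, 2 had such intervals (SLC22A7 and SLC22A20), beside 8.28% of 3854 genes. Among these 12, 6 had the higher value in PRSS35 and 6 the lower.

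**Figure D3:**
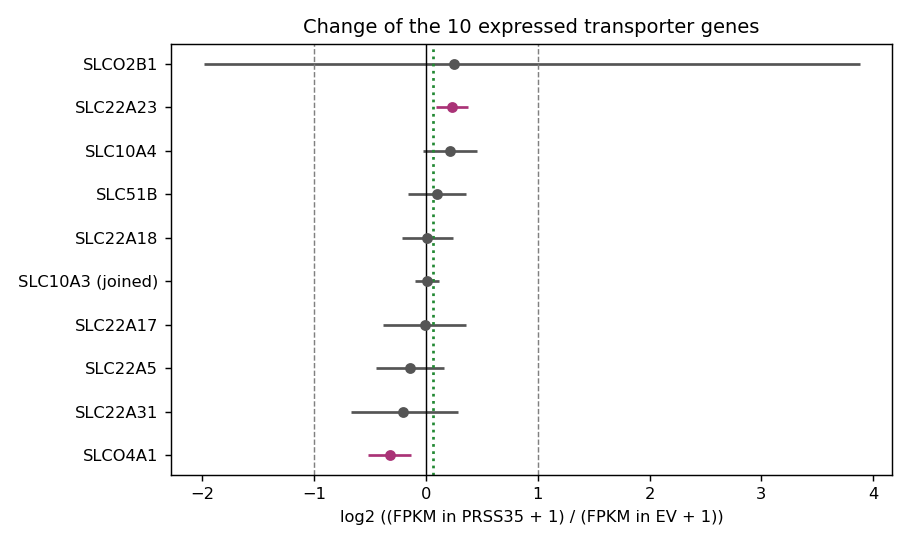
Change from EV to PRSS35 of the 10 expressed transporter genes, as log2 of the FPKM ratio with 1 FPKM added to each value, with bars from the Cufflinks intervals, a dotted line at the median of all expressed genes and dashed lines at 2-fold. The points of SLC22A23 and SLCO4A1, drawn in purple, have intervals that did not overlap, and every point lies between -0.32 and 0.26.

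The order of the expressed genes was nearly the same in both libraries. In EV it ran SLC51B, SLC22A18, SLCO4A1, SLC22A23, SLC22A5, SLC10A4, SLCO2B1, SLC22A17 and SLC22A31, leaving out the joined SLC10A3 row. The neighbours SLC22A18 and SLCO4A1 had overlapping intervals, as had SLC22A17 and SLC22A31. In PRSS35, SLC22A23 stood before SLCO4A1, again with overlapping intervals, and the intervals of neighbours from SLC22A5 to SLC22A17 overlapped, where that of SLCO2B1 was very wide. By rank over all names, SLCO4A1 went from 3672 in EV to 4290 in PRSS35.

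Many of the genes lie in clusters of related copies, and whole clusters were below the expression level. On chromosome 11, all 6 names from SLC22A6 to SLC22A9 (62744069 to 63177712) were SLC22 genes, and the highest was at 0.332 FPKM in EV and 0.387 in PRSS35. On chromosome 12, the 5 SLCO genes from SLCO1C1 to SLCO1A2 (20848289 to 21548371) reached 0.0253 FPKM in EV and were all listed at 0 in PRSS35. On chromosome 5 the neighbours differed, SLC22A5 being expressed and SLC22A4 not.

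The annotated start sites of expressed and other transporter genes differed in base composition, which was not tested. An annotated window of 300 bases was available for 45 of the 46 genes. For 28 of these 45 the locus began within 100 bases of the annotated start. For the others the window may not hold the start used in these cells. The CpG and motif counts of the transporter genes share that limit. The median number of CpG dinucleotides was 27 in the 10 expressed genes (2 to 39) and 6 in the other 35 (0 to 47). Over all named genes it was 28 in 8941 expressed and 10 in 10324 others, a difference in the same direction. Exceptions stood on both sides: SLCO2B1 held 2 CpG and SLC51B 5 although expressed, whereas SLC22A4 held 29, SLC22A16 held 39 and SLC22A3 held 47. TATAAA, the core of the TATA box, was in 1 of 10 expressed and 7 of 35 other transporter genes, and in 10.1% of all windows.

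The low uptake genes stood beside hepatocyte factors that were expressed. All 11 genes on a list of hepatocyte transcription factors were expressed, beside 40.5% of all names. They were led by CEBPA at 95.7 FPKM in EV and 107.3 in PRSS35 and CEBPB at 93.8 and 108.0. None passed 2-fold in either direction. The list does not hold the nuclear receptors NR1H4, NR1I2 and NR1I3, which were counted with bile acid sensing. Those receptors were below the expression level and are named after their values were seen. Of 12 ABC and related export partners, 7 were expressed and 0 passed 2-fold. ABCC6 was at 27.2 and 30.1 FPKM and ABCC1, a basolateral drug exporter, at 9.04 and 8.91. ABCB11, the canalicular bile acid pump and named after its values were seen, was listed at 0 in both.

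Of 16 genes of bile acid synthesis, 8 were expressed, 3 were listed at 0 in both and 1 was higher at 2-fold in PRSS35, beside 40.5% of all names expressed and 1.89% of expressed genes higher. The median change of the list was 0.11, beside 0.06 over all expressed genes. That gene was SLC27A5, the bile acid CoA ligase and fatty acid carrier BACS, at 13.8 FPKM (12.7 to 14.9) in EV and 39.5 (35.7 to 43.3) in PRSS35, a change of 1.45. CYP27A1, which starts the acidic pathway, had the highest mean of the list at 30.4 and 33.0 FPKM. Those listed at 0 were CYP7A1, CYP7B1 and CYP8B1, which were picked out after their values were seen. Of 11 genes of bile acid sensing, 5 were expressed and 0 passed 2-fold, led by FGFR4, the receptor for FGF19, at 203.4 and 236.3 FPKM. RXRA, in a row joined with MIR4669, followed at 19.4 and 19.1 FPKM.

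**Figure D4:**
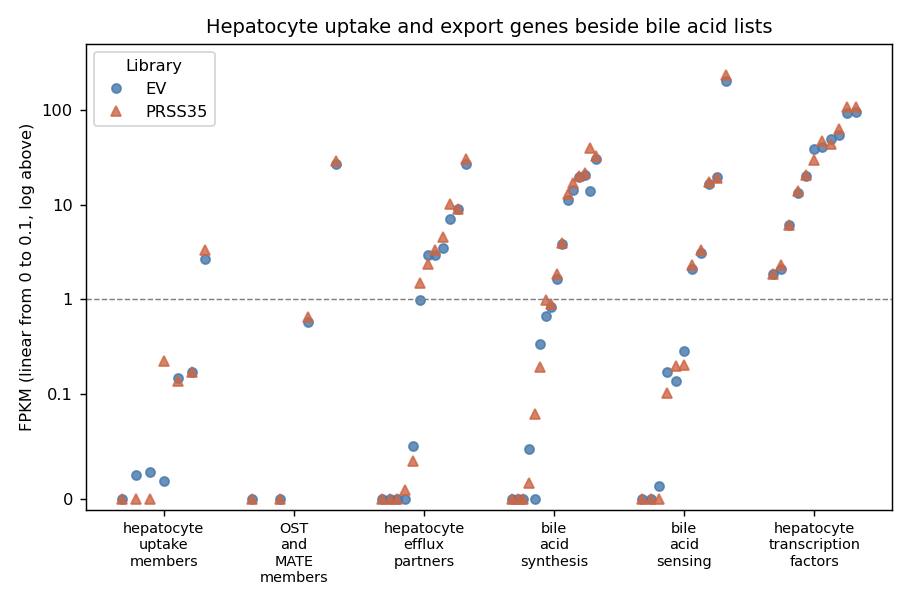
FPKM (linear up to 0.1, logarithmic above) of the hepatocyte uptake genes, the OST and MATE genes and 4 lists of bile acid and hepatocyte genes, 1 circle (EV) and 1 triangle (PRSS35) per gene, sorted by level within each list, with the expression level of 1 FPKM dashed. Only SLCO2B1 of the 7 uptake genes lies above the line, whereas all 11 genes on the list of hepatocyte transcription factors do.

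Of 9 genes of carnitine use, 8 were expressed and 1 was higher at 2-fold, beside 1.89% of all expressed genes, with a median change of 0.24 beside 0.06. The intervals did not overlap for 5 of the 8, with 4 higher in PRSS35 and 1 lower, beside 24.4% and 13.8% of all expressed genes above 0 in both libraries. The gene past 2-fold was CPT1C, the neuronal form of carnitine palmitoyltransferase, at 0.228 FPKM (0 to 0.463) in EV and 2.01 (1.13 to 2.89) in PRSS35. It reached a mean of 1 FPKM only through the PRSS35 library. CRAT, which transfers acetyl groups to carnitine, was at 66.8 and 62.3 FPKM. SLC25A20, the next most abundant, was at 10.1 FPKM (9.22 to 11.0) in EV and 15.3 (14.2 to 16.4) in PRSS35. Of 8 partner and scaffold proteins, all were expressed and 0 passed 2-fold, led by BSG at 884 and 832 FPKM and by SLC9A3R1, in a row joined with MIR3615, at 598 and 617. Of 13 folate and drug carriers outside the families, 12 could be matched, 6 were expressed and 0 passed 2-fold. Among them SLC19A1, the reduced folate carrier, was at 61.6 FPKM in EV and 50.1 in PRSS35, and SLC29A2, a nucleoside carrier, at 60.1 and 50.04. SLC29A1 got no value, because it was joined with HSP90AB1 in PRSS35 only.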

How the data were processed

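Total RNA of 1 EV and 1 PRSS35 culture of PLC cells was sequenced, and the deposited tables hold FPKM per locus, made by the authors with TopHat2 2.1.0 and Cufflinks (Cuffdiff 2.2.1 in the submitters' processing notes) on hg19. The annotation release, the Cufflinks options and the handling of strand are not given in the sources used here. Rows of the same gene name were summed with Python 3.11.15, pandas 2.3.3 and numpy 2.4.6, and figures were drawn with matplotlib 3.10.9. Changes are log2((PRSS35 + 1) / (EV + 1)) in FPKM, expressed means a mean of at least 1 FPKM, and a gene was called at 2-fold. The count per fold was checked on simulated data. Named are all expressed, hepatocyte uptake, MATE and OST genes, those with separate intervals, and PRSS35. The exception is 1 hepatocyte uptake gene that is counted but not reported singly here. From each list apart from the cell type markers, the genes past 2-fold and the 2 most abundant are named. Other exceptions are stated where they occur, and the other transporter genes are given as values or ranges. The transporter genes and lists were chosen with earlier results of these data known. Start sites and exons come from GENCODE on GRCh37. Alternatives were other pseudocounts, thresholds, scalings, locus choices and folds.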

Additional observations from a re-analysis of the deposited data

How the results depend on the processing

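No replicate could be left out, since each condition had 1 library. No paired analysis was possible because 1 library per condition leaves no pairs to block on. No expressed transporter gene passed 2-fold under any alternative run. The expressed genes numbered 14 at a mean of 0.5 FPKM, 7 at 5 FPKM and 9 without the joined row. Their median change of 0.01 ran from -0.05 to 0.16 except under scaling by the sum over all loci, where it was 0.70 beside 0.67 for all expressed genes. For the 20 transporter genes followed singly, 146 of 165 values stayed within the Cufflinks interval and 19 moved beyond it. The sign changed for 6 of the 20 genes under the sum over all loci, for 3 under centring on the median, and for 2 each under the sum over named loci and the upper quartile. Fragments per gene limit every value under 0.5 FPKM.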
